A study of Zea mays with 2182 samples.

Results

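Genes of DNA replication, DNA methylation and the spindle checkpoint, namely the 4 genes ROA2, FEN1, DMT105 and MAD2, were followed through maize anther growth in single cells. They were chosen by name as 4 of the 22173 rows of the deposited table. The anthers came from untreated greenhouse plants of the fertile maize inbred line W23 and were dissected at 11 lengths, which are 0.5, 0.75, 1.0, 1.25, 1.5, 1.75, 2.0, 2.25, 2.5, 2.75 and 3.0 mm. All lengths share this genotype, there was no treated group, and the labels name neither the plant nor the wall layer of a cell. Cells were fixed, digested out of the anther, sorted singly and sequenced with CEL-Seq2, which tags each captured transcript end with a unique molecular identifier (UMI), so that a UMI stands for 1 captured molecule.

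A dividing cell copies its DNA once per cycle. The MCM helicase opens the double helix at licensed origins, DNA polymerases follow, and the flap endonuclease trims the joined pieces of the lagging strand; DNA methyltransferases restore methyl marks on the new strands, and the spindle checkpoint holds back chromosome separation until every chromosome is attached. Anther wall layers are set up by cell divisions in small anthers, after which growth in length goes on mainly by cell enlargement, while the germinal cells inside enter meiosis. ROA2 is a maize replication origin activator, a relative of the MCM3 helicase subunit. FEN1 is the flap endonuclease, DMT105 (also ZMET5) a chromomethylase that maintains DNA methylation outside CG sites, and MAD2 a spindle checkpoint protein. The reference record for ROA2 also carries the names ROA1 and ROA3, so these names do not separate close relatives.

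The table held 2182 cells, and those that reached 500 UMIs, 1658 in number, were analysed. Of these, 89 came from 3.0 mm anthers, the smallest number, and 21.9% from 2.0 mm anthers. The sum over cells was between 132940 UMIs at 3.0 mm and 1496508 UMIs at 2.0 mm, and the median cell had between 972 and 2162 UMIs. Cell titles gave 6 sets, and a set, a number and a length together are called a pool here; 45 pools had at least 8 analysed cells. The lengths were not spread evenly over the sets, and only sets 1.4.21 and 8.18.21 reached from 0.5 to 3.0 mm. All 96 well numbers occurred in at least 2 pools, and in 2 of 16 clusters, holding 12.5% of the cells, cells sat in the same well number of different pools over 2 times as often as the use of wells would give. Those clusters are called clusters with recurring wells, and results are also given without them. Of the marker lists only CR4 (epidermis), C2 (flavonoid synthesis) and 4 nuclear photosynthesis genes had a row, so that no cluster was given a cell type name.

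ROA2 had 445 UMIs, found in 15.8% of the analysed cells. Its summed level was 259.8, 276.5 and 298.1 counts per 1000000 UMIs (CPM) at 0.5, 0.75 and 1.0 mm, followed by 219.8, 128.2, 119.7, 55.5 and 12.2 CPM from 1.25 to 2.25 mm and by 51.2, 20.0 and 15.0 CPM at 2.5, 2.75 and 3.0 mm. The level was thus highest at 1.0 mm and lowest at 2.25 mm, where 3 UMIs were counted. The exact Poisson 95% intervals, which cover counting error only, separated neighbouring lengths in 2 of 10 pairs, namely at 2.0 mm (44.2 to 68.8 CPM) against 1.75 mm (78.9 to 174.1 CPM) and at 2.25 mm (2.51 to 35.6 CPM) against 2.0 mm; the other neighbours overlapped.

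FEN1 was found in 12.4% of the cells, with 75 UMIs at 0.5 mm and 2 at 3.0 mm. Its level was 180.4, 140.7 and 77.6 CPM at 0.5, 0.75 and 1.0 mm, 88.9, 52.4, 62.0, 54.1 and 20.3 CPM from 1.25 to 2.25 mm, and 27.0, 15.0 and 15.0 CPM at the 3 longest lengths. The intervals of no neighbouring pair were apart, so that its fall cannot be placed at 1 step.

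DMT105 had 497 UMIs, found in 14.4% of the cells. Its level was 322.3, 349.2 and 355.3 CPM at 0.5, 0.75 and 1.0 mm, 149.7, 104.9, 155.1, 58.1 and 28.4 CPM from 1.25 to 2.25 mm, and 48.5, 10.0 and 37.6 CPM at 2.5, 2.75 and 3.0 mm. The step at 1.25 mm (interval 102.4 to 211.3 CPM) against 1.0 mm (284.6 to 438 CPM) was larger than the counting error. At this step alone among the 10 of each gene the ranges over pools with at least 8 analysed cells were also apart. They were 108.9 to 241.2 CPM in 4 such pools of 1.25 mm and 278.9 to 416.3 CPM in the 4 pools of 1.0 mm. A smaller pool at 1.25 mm, pool 7 of set 1.4.21 (3 cells, 2 UMIs), was at 396.4 CPM, inside the range of 1.0 mm. The intervals at 2.0 and 1.75 mm were apart as well, while those of the other 8 neighbouring pairs overlapped. Set 1.4.21, the only set at both 1.75 and 2.0 mm, had 56.8 CPM (4 UMIs) and 10.1 CPM (1 UMI) there.

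MAD2 was counted far less often. It was found in 76 cells, with 24 UMIs at 0.5 mm and fewer at each other length but 2.0 mm. Its level was 57.7, 34.0, 69.4, 14.0, 69.9, 44.3, 22.1, 20.3, 5.39, 5.01 and 0 CPM over the 11 lengths in order. At 3.0 mm it was not detected, which allows up to 22.6 CPM (3 UMIs). A single cell of set Pilot at 2.0 mm held 12 of its UMIs. No pair of neighbouring lengths had separate intervals for MAD2.

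**Figure D1:**
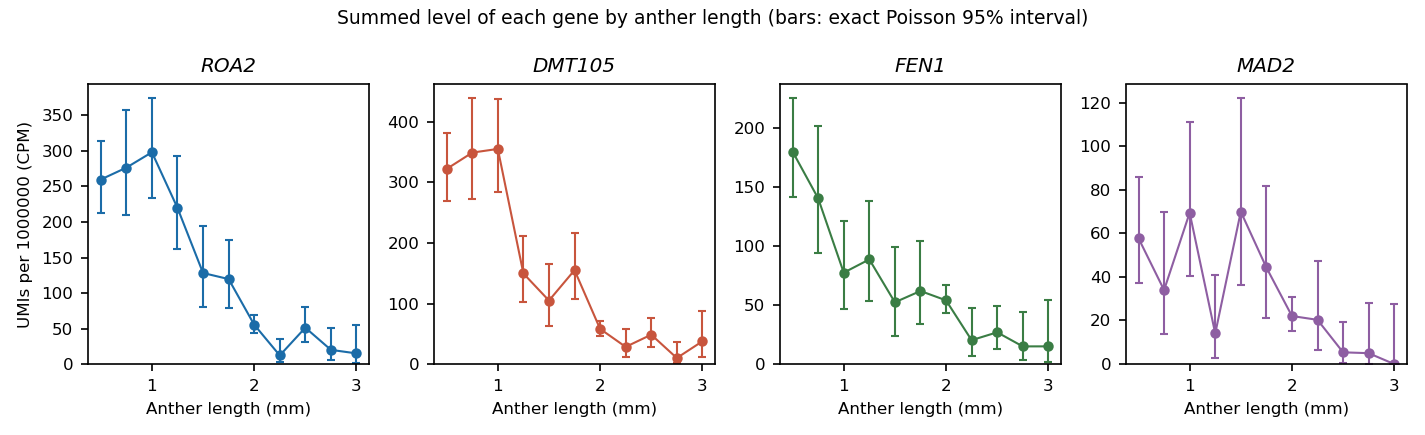
Summed level of each gene in counts per 1000000 UMIs (CPM, vertical axis, a separate scale for each gene) against anther length in mm, with exact Poisson 95% intervals as bars. ROA2 and DMT105 stay near their highest level up to 1.0 mm, FEN1 is highest at 0.5 mm, and all points from 2.25 mm on lie below 60 CPM in each gene.

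The slope of each gene on length was tested over the 11 sums with edgeR's quasi-likelihood test. All 4 genes passed the filter on low counts and fell, beside 14.2% of the 5537 tested genes that fell and 30.2% that changed in either direction. Since the genes were picked with earlier results of these cells known, this count is a description. In log2 units per mm with its standard error, the slope was -1.55 ± 0.23 for ROA2 (Benjamini-Hochberg adjusted p = 0.000158), -1.17 ± 0.17 for FEN1 (adjusted p = 0.000158), -1.54 ± 0.22 for DMT105 (adjusted p = 0.000164) and -1.04 ± 0.33 for MAD2 (adjusted p = 0.0279), from edgeR with n = 11 sums each. The median slope of all tested genes was 0.0077. Without composition factors the median of all slopes was -0.23 and the split of calls turned to 490 rising and 1528 falling genes, beside 885 rising and 785 falling with TMM factors; ROA2, FEN1, DMT105 and MAD2 then had slopes of -1.80, -1.39, -1.77 and -1.26, which is also below that median. MAD2 was the least secure of the 4: it no longer passed when 2.5, 2.75 or 3.0 mm was left out (edgeR, adjusted p of 0.0698, 0.0850 and 0.0712), and it was under the filter without 0.5, 1.0 or 1.75 mm. Fewer cells expressing a gene and less RNA per cell cannot be told apart in these sums.

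Within the pair of sets that span the range, the fall was steeper in set 8.18.21 by its point estimates. In set 8.18.21 the slope was -2.02 ± 0.34 for ROA2, -1.35 ± 0.25 for FEN1 and -1.86 ± 0.36 for DMT105 (edgeR, adjusted p of 0.00228, 0.00385 and 0.00473, n = 9 lengths), beside 7.51% of genes that fell there. In set 1.4.21 it was -1.05 ± 0.49 for ROA2, which did not pass, and -1.19 ± 0.42 for DMT105, which did (edgeR, adjusted p of 0.108 and 0.0406, n = 11 lengths), beside 15.4% of genes. FEN1 in set 1.4.21 and MAD2 in both sets were under the filter. Some sums of set 1.4.21 were small, with 3 cells and 3590 UMIs at 2.75 mm. At 2.5 mm this set had 159.4 CPM of ROA2, all of it from pool 4, which is described below. The difference between the sets was itself tested as an interaction in edgeR, where it was -1.09 ± 0.66 for ROA2 (adjusted p = 0.782), -0.77 ± 0.61 for DMT105 (adjusted p = 0.90) and -0.036 ± 0.37 for FEN1 (adjusted p = 1.00). Over all 2787 genes of that test 0 were called (7.64% had p under 0.05 before adjustment), so no difference between the sets was detectable.

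By the point values of single pools with at least 8 analysed cells, ROA2 and DMT105 were nearly without overlap between long and short anthers. ROA2 lay between 0 and 178.7 CPM with a median of 11.0 CPM in the 11 pools of 2.5 to 3.0 mm, and between 105.1 and 916 CPM with a median of 249.9 CPM in the 12 pools of 0.5 to 1.0 mm. DMT105 lay between 0 and 131.02 CPM with a median of 25.8 CPM in the long pools, and between 116.6 and 527 CPM with a median of 313.6 CPM in the short pools. For each of these genes 10 of the 11 long pools were below every short pool, and the exception in both was pool 4 of set 1.4.21 at 2.5 mm, with 178.7 CPM of ROA2 and 131.02 CPM of DMT105. Without this pool the slope of ROA2 was -1.85 ± 0.23 and that of DMT105 -1.70 ± 0.23. ROA2 and DMT105 were each at 0 in 5 of the 11 long pools. A count of 0 in a shallow pool does not set it below the short pools. In pool 2 of set 1.4.21 at 2.5 mm it allows up to 295.6 CPM (3 UMIs). The lowest short pool of DMT105 rests on 1 UMI. FEN1 and MAD2 were at 0 in 6 and 9 of the 11 long pools, but also in 1 and 3 of the 12 short pools, so that their pools overlapped. Fitted over the 45 pools, with no replicate block, ROA2 fell with a slope of -1.43 ± 0.24 (edgeR, adjusted p = 2.06e-06), beside 26.6% of the genes tested there; FEN1, DMT105 and MAD2 were under the filter of that fit. With set and number as a block the call of ROA2 was lost, at a slope of -1.14 (edgeR, adjusted p = 0.120). DMT105 and FEN1 were fitted there as well and did not pass, at -1.24 and -0.72 (edgeR, adjusted p of 0.0686 and 0.424). MAD2 was under the filter, and 0.66% of genes fell.

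**Figure D2:**
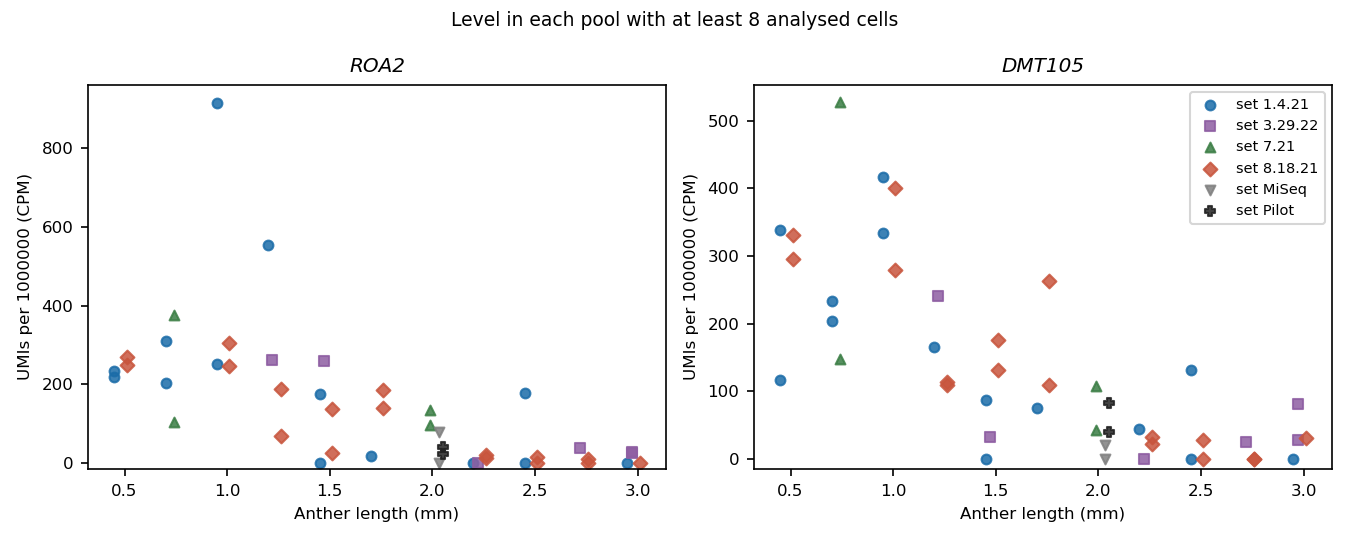
ROA2 (left) and DMT105 (right) in counts per 1000000 UMIs (CPM) in each pool with at least 8 analysed cells, against anther length in mm, with a symbol and colour for each set. The pools of 2.25 mm and longer lie between 0 and 80.7 CPM except pool 4 of set 1.4.21 at 2.5 mm, which holds 178.7 CPM of ROA2 and 131.02 CPM of DMT105.

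Whether the genes fell at different rates was tested in 6 pairs, as the slope of 1 gene among the summed UMIs of both (permutation test over lengths, 100000 permutations, two-sided, Benjamini-Hochberg over the 6 pairs). None passed. ROA2 and DMT105 differed by 0.13 log2 units per mm, with a 95% interval of the difference from -0.18 to 0.43 (permutation p = 0.342, adjusted p = 0.510), so that a difference of over 0.43 lies outside the interval. The interval was wider for the rarer genes: DMT105 minus MAD2 was -0.66, with an interval from -1.32 to 0.0062 (permutation p = 0.0866, adjusted p = 0.388), and ROA2 minus MAD2 was -0.56, from -1.30 to 0.17 (permutation p = 0.129, adjusted p = 0.388). The differences of ROA2, DMT105 and MAD2 from FEN1 are bounded likewise, with ROA2 minus FEN1 at -0.32, from -0.86 to 0.23, DMT105 minus FEN1 at -0.43, from -0.94 to 0.09, and FEN1 minus MAD2 at -0.20, from -0.94 to 0.54 (adjusted permutation p between 0.510 and 0.570). A common rate is not shown by these tests.

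Other genes of the same processes were largely without a named row. Of 18 listed origin and helicase genes, 19 histone genes and 13 other DNA methylation genes, 0 had a row under the listed symbols. Of 16 fork genes only PCNA, the sliding clamp of the polymerases, had one, and of 26 mitosis and checkpoint genes only CDC2, a cyclin-dependent kinase, and RBR3, a retinoblastoma-related cell cycle regulator. These 3 were under the filter. PCNA had 3.47 ± 3.01 CPM at the 3 longest lengths and 31.0 ± 10.8 CPM at the 3 shortest (SD, n = 3 lengths), and without the filter its slope of -1.44 ± 0.37 passed (edgeR, adjusted p = 0.0124), beside 5.17% of the 22173 genes that fell in that fit. RBR3 had 10.1 ± 13.2 CPM at the longest and 47.2 ± 9.66 CPM at the shortest lengths, and CDC2 had 26.2 ± 16.7 and 43.1 ± 13.1 CPM; neither passed (edgeR without the filter, adjusted p of 0.0590 and 0.495). Both chromatin genes with a row, HMGIY2 and MNB1B of the high mobility group, passed with slopes of -1.31 ± 0.20 and -0.42 ± 0.15 (edgeR, adjusted p of 0.000227 and 0.0433). The 6 genes of differentiated cells, among them RBCS (Rubisco small subunit) and C2 (chalcone synthase), all rose, with slopes from 0.48 for FDX3 to 2.37 for RBCS.

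Among 82 genes with a symbol and a mean of at least 50 CPM, the profile over the 11 lengths that was most like the mean profile of the 4 tested genes was that of HMGIY2 (Pearson r = 0.94 of log2(CPM + 20)). Next came RPS21 (0.90) and RPS4 (0.89), for ribosomal proteins, CPN60II (0.90), a mitochondrial chaperonin, and TD1 (0.88), a receptor kinase of meristem size. The most unlike were C2 (-0.96), the photosynthetic antenna gene CAB1 (-0.93) and the aquaporin gene SIP1-2 (-0.93). All genes share the same 11 sums, and 3.599% of all 4084 genes compared had r above 0.9, with a median of 0.36. HMGIY2 stood at rank 25 of all these genes. Among the members themselves r was 0.95 between ROA2 and DMT105, 0.92 for each of them with FEN1, and between 0.68 and 0.75 for MAD2 with the other 3.

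Cells of different lengths differ in depth, so shares of cells were compared after every cell had been thinned to 500 UMIs. At least 1 UMI of the 4 genes was then present in 25.7% of cells of 0.5 to 1.0 mm (exact binomial 95% interval 21.5 to 30.3%), 12.3% of the 905 cells of 1.25 to 2.25 mm (10.2 to 14.6%) and 4.49% of cells of 2.5 to 3.0 mm (2.59 to 7.2%). The first and last class hold 23.9% and 21.5% of the 1658 cells. The intervals of the 3 classes do not overlap. These intervals, here and for the single genes below, count cells as independent and leave out differences between pools and sets. By length the share was 28.5%, 23.3% and 25.5% up to 1.0 mm, 15.8%, 16.5% and 19.9% from 1.25 to 1.75 mm, 9.09% and 4.10% at 2.0 and 2.25 mm, and 6.38%, 3.97% and 2.25% from 2.5 mm on. Unthinned, the 3 classes held 55.9%, 30.1% and 9.55%.

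The same order held for the genes one by one. In the 3 classes, ROA2 had a UMI in 11.6%, 4.97% and 1.97% of thinned cells, DMT105 in 10.6%, 3.98% and 0.843%, FEN1 in 5.54%, 3.20% and 1.69%, and MAD2 in 2.02%, 1.33% and 0.281%. The intervals of the long and the short class were apart for ROA2 (0.794 to 4.01% and 8.61 to 15.2%) and DMT105 (0.174 to 2.44% and 7.73 to 14.0%), and overlapped for FEN1 and MAD2. A carrier held 1.00 to 1.33 UMIs of a gene on average in every class at this depth, so that the fall was seen in the number of carriers; at 1 UMI per carrier the level within carriers is not resolved.

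**Figure D3:**
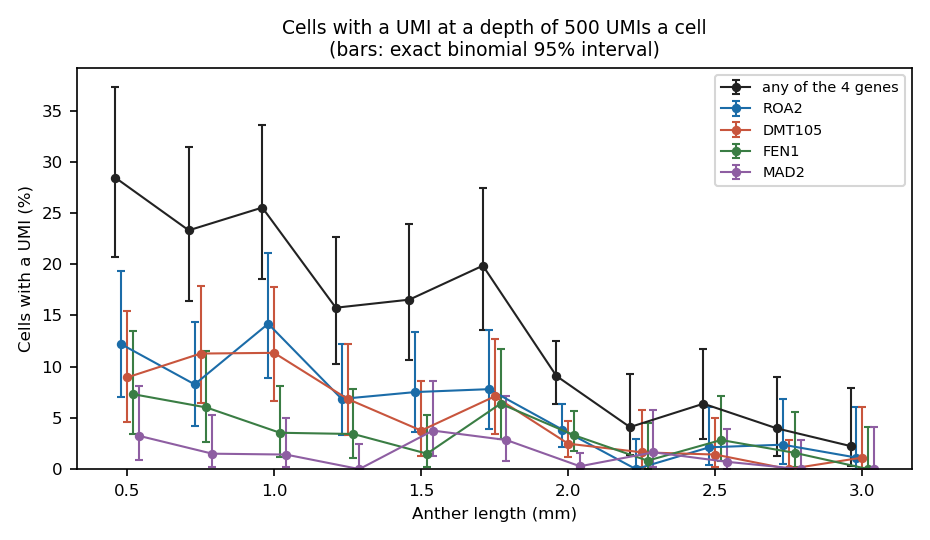
Percentage of cells with at least 1 UMI of the named gene, or of any of the 4 genes (black), after each cell was thinned to 500 UMIs, against anther length in mm; bars are exact binomial 95% intervals. The share for any of the genes lies at 23.3 to 28.5% up to 1.0 mm and at 2.25 to 6.38% from 2.25 mm on.

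DMT105 was found in a larger share of the cells with ROA2 than of the other cells. In thinned cells of 0.5 to 1.0 mm, DMT105 was present in 10 of 46 cells with a ROA2 UMI (21.7%, interval 10.9 to 36.4%) and in 32 other cells (9.12%, 6.32 to 12.6%). From 1.25 to 2.25 mm it was present in 6 of 45 ROA2 carriers (13.3%, 5.05 to 26.8%) and in 30 of 860 other cells (3.49%, 2.37 to 4.94%). These 2 intervals are apart, but both genes fell over the lengths pooled here. From 2.5 mm on DMT105 was present in 1 of 7 carriers and in 2 other cells. These are descriptions with no test, since cells of a pool may share a plant and a library.

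By single length and set the counts were small, and the share was higher in carriers at 6 of the 7 lengths from 0.5 to 2.0 mm. The intervals of carriers and other cells overlapped at each of these lengths and in each set. Among the lengths up to 1.0 mm the share of DMT105 was 13.3%, 27.3% and 25.0% in ROA2 carriers, against 8.33%, 9.84% and 9.09% in the other cells of the same length. At 1.25, 1.5, 1.75 and 2.0 mm it was 20.0%, 0%, 27.3% and 7.14% in carriers, against 5.88%, 4.07%, 5.38% and 2.29% in the others, so that 1.5 mm, with 10 carriers, went the other way. Among the 3 sets of the lengths up to 1.0 mm it was 22.2%, 30.0% and 18.5% in carriers of sets 1.4.21, 7.21 and 8.18.21, against 4.41%, 11.1% and 9.84% in the others. Without clusters with recurring wells it was 22.7% and 9.14% up to 1.0 mm and 13.2% and 3.1% from 1.25 to 2.25 mm.

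For FEN1 an excess in ROA2 carriers was not detectable at this depth. It was present in 3 of 46 ROA2 carriers (6.52%, 1.37 to 17.9%) and 19 other cells (5.41%, 3.29 to 8.32%) up to 1.0 mm, and in 3 of 45 carriers (6.67%, 1.40 to 18.3%) and 26 of 860 others (3.02%, 1.98 to 4.40%) from 1.25 to 2.25 mm, where the interval of its carriers includes the 13.3% of DMT105. MAD2 was in 1 of 46 ROA2 carriers and 7 other cells up to 1.0 mm (2.17% and 1.99%), so an excess for MAD2 was not detectable either.

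**Figure D4:**
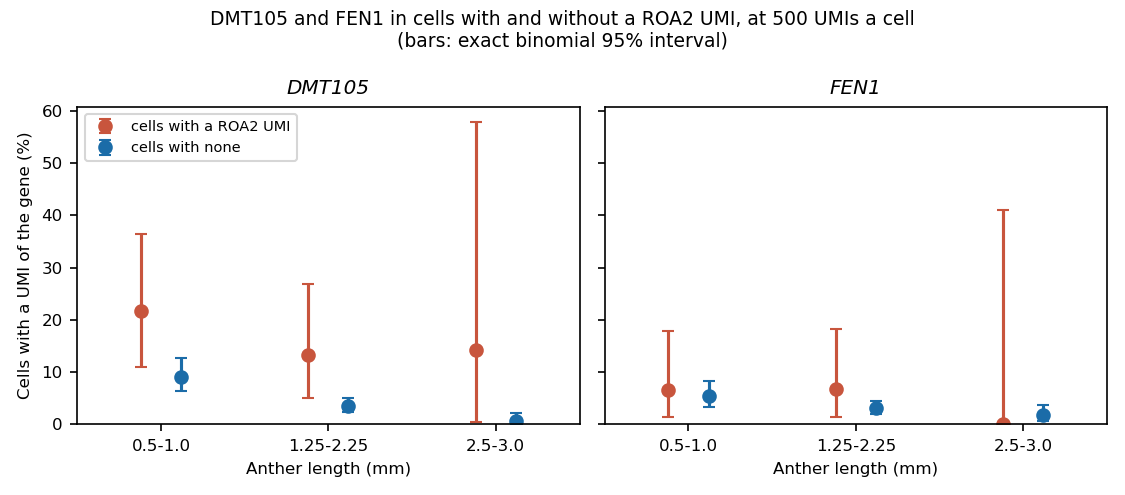
Percentage of cells with a DMT105 UMI (left) or a FEN1 UMI (right) among cells with a ROA2 UMI (red) and cells with none (blue), after thinning to 500 UMIs a cell, in 3 classes of anther length in mm; bars are exact binomial 95% intervals. DMT105 is at 21.7% and 9.12% in the shortest class, and the intervals of the longest class are too wide to read.

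Before thinning, 9 cells held all 4 genes. They had between 3796 and 30435 UMIs, so that deep cells make up this group, and 7 of them came from anthers of up to 1.0 mm, 5 of these at 0.5 mm, where the median cell was deeper than at 0.75 and 1.0 mm. The other 2 were from 2.0 mm. At equal depth, 16 cells (4.03%) held 2 or more of the genes up to 1.0 mm, 10 (1.10%) from 1.25 to 2.25 mm, and 1 (0.281%) from 2.5 mm on.

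In anthers of 2.5 to 3.0 mm, 34 cells (9.55%) still had a UMI of at least 1 of the 4 genes at full depth. Together they held 68 UMIs, of which 25 were ROA2, 25 DMT105, 15 FEN1 and 3 MAD2. Most of these cells had little: 23 of the 34 held a single UMI, and the carriers were deeper than the rest, with a median of 1921 UMIs against 1210.5 UMIs in the other late cells. At equal depth the late carriers were 16 cells, the 4.49% given above.

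The late UMIs were unevenly spread over pools and cells. The carriers came from 7 of the 14 late pools, and 30 of the 68 UMIs came from 6 of 31 cells of pool 4 of set 1.4.21 at 2.5 mm. The 10 carriers of 2 or more genes held 43 UMIs, and 5 of these 10 cells were from that pool. A single cell there held 11 UMIs of ROA2, 1 of DMT105 and 1 of FEN1 among 12789 UMIs, the highest count of ROA2 in any cell of the study, and another held 5 of DMT105 and 1 of ROA2 among 3234. Without this pool the late level of ROA2 was 16.1 CPM, against 35.5 CPM with it, and that of DMT105 22.6 CPM against 35.5 CPM. Outside that pool the cell with the most was in pool 1 of set 8.18.21 at 2.5 mm, with 2 UMIs each of ROA2 and DMT105 among 2169, and it also had 9 UMIs of HMGIY2.

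**Figure D5:**
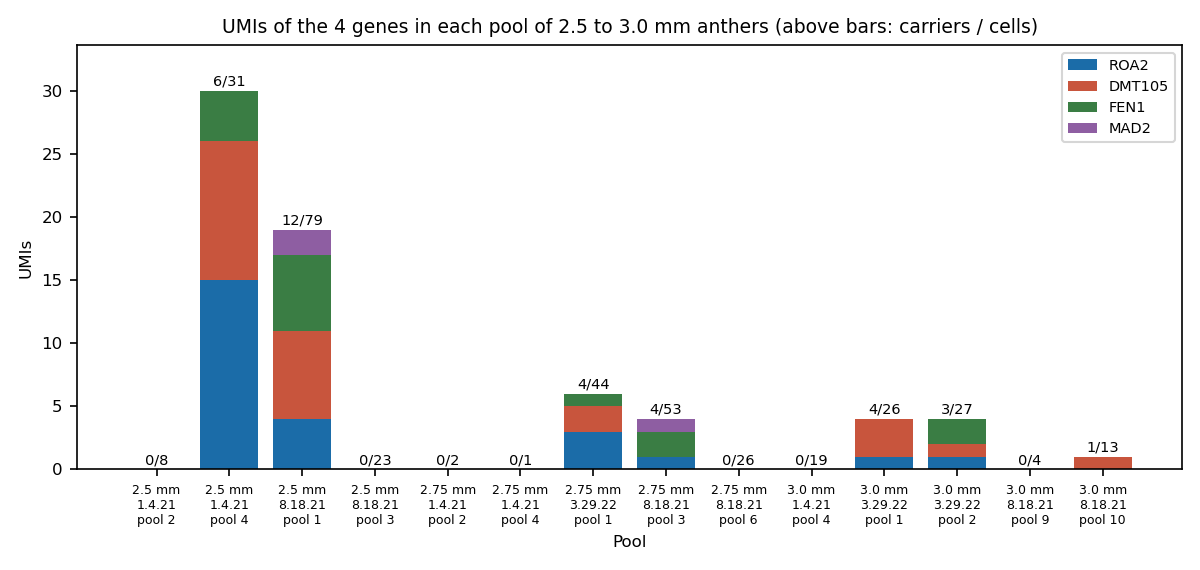
UMIs of the 4 genes (stacked bars) in each pool of anthers of 2.5, 2.75 and 3.0 mm, with the number of carriers over the number of analysed cells above each bar. Pool 4 of set 1.4.21 at 2.5 mm holds 30 UMIs in 6 of 31 cells, while 7 of the 14 pools hold none.

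Other genes were read in the 16 late carriers at equal depth, using all UMIs of these cells. HMGIY2 was at 943 CPM in them (interval 649 to 1324 CPM) and at 243.8 CPM (207.8 to 284.3 CPM) in the other late cells. C2 was at 1543 CPM (1159 to 2013 CPM) against 3506 CPM (3366 to 3651 CPM), and the summed level of RBCS, CAB1, PSAH and PSBQ1 was at 3629 CPM against 4482 CPM, with at least 1 UMI in 5 of the 16 carriers (31.25%) and in 60.6% of the others. For C2 this depends on the choice of carriers: in all 34 carriers found at full depth it was at 3369 CPM (3008 to 3762 CPM), against 3415 CPM (3270 to 3565 CPM) in the rest, where the intervals overlap. HMGIY2 was at 650.4 CPM (498 to 835 CPM) in the 34, against 221.4 CPM (185.6 to 262.1 CPM), and the photosynthesis genes at 2324 CPM against 4764 CPM. CDC2, PCNA and RBR3 together had 2 UMIs in the carriers and 23 in the others, too few to compare. The cells were chosen by the UMIs of the 4 genes, so this is a description with no test, and the intervals leave out differences between pools.

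Clusters made without the rows of these genes also differed in them. The highest levels of ROA2, DMT105 and FEN1 were in cluster 9, whose leading named rows were TD1, HMGIY2, CPN60II and SGS3, with 362.6, 367.95 and 197.3 CPM; 86 of its 95 cells were from anthers of up to 1.0 mm. Cluster 1, with 68.5% of its cells from these lengths, had 272.1, 317.4 and 159.7 CPM. In cluster 7, led by rows for ribosomal and plastid genes, DMT105 was at 314.9 CPM and ROA2 at 150.6 CPM, and in cluster 12, led by PPDK2 and aquaporin genes, ROA2 was at 240.5 CPM and DMT105 at 87.5 CPM. MAD2 was at 196.8 CPM in cluster 12, but at 70.2 CPM without the 1 cell that held 12 UMIs.

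Low levels were found in several clusters of anthers from 1.25 mm on. Cluster 14, led by EXPB1 and PRO3, genes known from pollen, and cluster 16 had 0 UMIs of ROA2 and DMT105 in 36 and 23 cells; in their late cells this allows up to 66.8 and 70.3 CPM (3 UMIs). Cluster 11 had 21.8 CPM of ROA2 but 112.5 CPM of DMT105, or 65.1 CPM without the cell with the most. Cluster 15 had 26.5 CPM of ROA2 and 41.2 CPM of DMT105, and cluster 10 had 48.9 and 14.4 CPM. The median length was 2.0 mm in clusters 10, 11 and 15, 3.0 mm in cluster 14 and 2.75 mm in cluster 16. In cluster 2, led by the photosynthesis genes and with 94 of its cells from 1.25 to 2.25 mm and 93 from 2.5 mm on, ROA2 was at 27.6 CPM and DMT105 at 25.1 CPM over 11.3% of all cells. Of its 93 late cells 2 (2.15%, interval 0.262 to 7.55%) had a UMI of the 4 genes at equal depth, beside 5.32% (2.94 to 8.77%) of the late cells of other clusters, at medians of 1451 and 1201 UMIs; these intervals overlap. By summed level at full depth they were apart, at 21.8 CPM (5.94 to 55.8 CPM) in the late cells of cluster 2 and 123.1 CPM (94.8 to 157.1 CPM) in the other late cells. The other late cells include pool 4 of set 1.4.21 at 2.5 mm, where cells of cluster 4 held 13, 6, 5 and 3 UMIs. Over all late cells the summed level was 96.7 CPM with that pool and 61.3 CPM without it. The comparison with cluster 2 was not made without that pool. The part of free RNA in single late UMIs was not tested.

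The clusters did not all differ the same way with length. In cluster 1 the summed level of the 4 genes was 893 CPM (802 to 992 CPM) in its cells of up to 1.0 mm, 537 CPM (400.2 to 707 CPM) in its 60 cells of 1.25 to 2.25 mm and 292.9 CPM (107.5 to 637 CPM) in its 16 late cells. In cluster 5 it was 455 CPM (346.03 to 586 CPM) up to 1.0 mm and 174.04 CPM (97.4 to 287.1 CPM) from 1.25 to 2.25 mm, while 1 of its 5 late cells held 4 UMIs, for 618 CPM (168.3 to 1582 CPM). In cluster 9 the 9 cells longer than 1.0 mm had 1362 CPM (794 to 2181 CPM), which overlaps the 994 CPM (852 to 1153 CPM) of its 86 shorter ones. In cluster 7 it was 563 CPM (387.7 to 791 CPM) from 1.25 to 2.25 mm and 670.2 CPM (503 to 874 CPM) up to 1.0 mm, which overlap. In cluster 4, led by C2, it was higher in late cells, at 191.2 CPM (133.2 to 265.9 CPM), than in those of 1.25 to 2.25 mm, at 89.8 CPM (56.3 to 135.97 CPM), where the intervals overlap slightly. Cluster 4 held 11 of the 34 late carriers and 35 of their 68 UMIs, among them 5 cells with 2 or more of the genes. Cells of pool 4 of set 1.4.21 at 2.5 mm held 13, 6, 5 and 3 of these 35 UMIs. The higher late level of cluster 4 thus rests largely on that pool, and it was not computed without it.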

How the data were processed

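Per the labels' protocols, single anther cells were sorted after fixation and sequenced with CEL-Seq2. The submitters' processing notes name HISAT2 and B73 RefGen_v4; how UMIs were counted and cells filtered is not stated there. The deposited table holds raw UMI counts, 1 cell a column. The cell titles gave length, set, number and well; the meaning of the number is unknown. The 4 genes, the lists and the tests were chosen with earlier results of these data known. Doublets were not called. A further gene of the set is not reported here; its row was also kept out of the clustering.

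Counts of cells with at least 500 UMIs were summed by length. The 11 sums were fitted in R 4.3.3 with edgeR 4.0.16, using TMM factors, filterByExpr and the quasi-likelihood test of a slope on length. P-values were adjusted over all tested genes by Benjamini-Hochberg, with calls at 0.05; standard errors are the slope over the root of F. No label says how many plants a sum holds, so p-values measure the spread of the sums around a line. CPM values carry no TMM factors. Thinning was 1 seeded draw. Cells were clustered without these rows in scanpy 1.11.5, with 2000 variable genes, 20 components, 15 neighbours and Leiden resolution 1. A cluster has recurring wells where same-well pairs across pools exceed 2 times the number the wells would give and reach at least 20. The fits were tested on simulated data. Alternatives were RLE factors, library size alone, DESeq2 1.42.0, other cell and gene filters, thinned sums, left-out lengths, pools or sets, and a replicate block. Genes named beyond the 4 were the listed genes with a row and, by symbol, the 5 most like and 3 most unlike profiles. Names were matched to Zm-B73-REFERENCE-NAM-5.0, which is not the build of the counts, and no coordinates are given.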

Additional observations from a re-analysis of the deposited data

Results flagged for a closer look

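Single pools stood apart from the others of their length in 6 of 35 groups of 4 to 10 pools (gap to the nearest pool over the range, above Dixon's 95% value). That value is made for normally distributed levels, so its nominal 1 in 20 does not apply to counts with many zeros. Where the other pools are at 0, a pool with any UMI is always flagged, as for FEN1 at 3.0 mm and MAD2 at 2.5 mm. Many of the flagged pools rest on few UMIs. ROA2 was at 916 CPM in pool 1 of set 1.4.21 at 1.0 mm (11 UMIs in 10 cells), with the next pool at 304.2 CPM, and at 178.7 CPM in pool 4 of set 1.4.21 at 2.5 mm (15 UMIs in 31 cells), with the next at 16.1 CPM. FEN1 was at 332.1 CPM in pool 1 of set 1.4.21 at 1.25 mm (6 UMIs) and at 56.3 CPM in pool 2 of set 3.29.22 at 3.0 mm (2 UMIs). MAD2 was at 85.6 CPM in pool 4 of set 8.18.21 at 2.25 mm (4 UMIs) and at 8.07 CPM in pool 1 of set 8.18.21 at 2.5 mm (2 UMIs).

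The 524 cells under 500 UMIs, which entered 1 alternative fit and no other comparison, also held the genes above the 3 UMIs that a count of 0 allows, with 42 UMIs of ROA2, 29 of DMT105, 15 of FEN1 and 5 of MAD2. In these shallow cells ROA2 was at 131.2 CPM (interval 48.1 to 285.5 CPM) from 2.5 mm on and at 248.4 CPM (113.6 to 472 CPM) up to 1.0 mm, intervals that overlap, unlike those of the deeper cells.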

How the results depend on the processing

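The slopes of the 4 tested genes stayed negative under every alternative in which they were fitted. ROA2 passed in 24 of 26 alternatives, DMT105 in 24 of 25, FEN1 in 22 of 23 and MAD2 in 13 of 16. Leaving out each length in turn gave slopes of -1.73 to -1.40 for ROA2, -1.66 to -1.37 for DMT105, -1.24 to -1.09 for FEN1 and -1.23 to -0.91 for MAD2, and called 21.7 to 29.0% of the genes. ROA2 was not called in set 1.4.21 alone (-1.05). Pool sums with a replicate block for set and number gave lower estimates: ROA2 (-1.14), DMT105 (-1.24) and FEN1 (-0.72) did not pass (edgeR, adjusted p of 0.120, 0.0686 and 0.424), and 4.05% of 4397 genes were called. Deviations correlated above 0.1 in 20 of 40 pool pairs with the same set and number (50.0%), 24.0% of those with the same set and another number and 10.2% of those of other sets (medians 0.10, 0.040 and -0.016). Pools were not treated as paired in the main fit. Deviations were more alike within a set and number, so such pairing is not excluded. Without the block the pool sums called 59.7% of genes (521) and ROA2 passed, while FEN1, DMT105 and MAD2 were under the filter there. In all 1670 genes were called, 30.2% of those tested, against 2635 (11.9%) with no filter, 482 (37.1%) for thinned sums, 280 (32.3%) in set 1.4.21 and 719 (17.7%) in set 8.18.21; fewer genes were tested in the last 3.

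No difference between pairs of genes passed under any alternative. Its sign turned in set 8.18.21 alone for ROA2 minus DMT105 (-0.087), and in set 1.4.21 alone for ROA2 minus FEN1 (0.60), ROA2 minus MAD2 (0.98), DMT105 minus FEN1 (0.23), DMT105 minus MAD2 (0.53) and FEN1 minus MAD2 (0.30); the cause was not tested. Leaving out each length gave 0.066 to 0.17, -0.85 to 0.079, -0.79 to -0.37, -0.87 to -0.044, -0.83 to -0.47 and -0.38 to 0.10 for the 6 pairs in the order of ROA2 minus DMT105, then the 5 just named.

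The share of cells with any of the genes was 55.9%, 30.1% and 9.55% unthinned and 45.0%, 18.8% and 7.86% at 1000 UMIs in the short, middle and long class, in the same order as at 500 UMIs. Leaving out pool 4 of set 1.4.21 at 2.5 mm or the clusters with recurring wells, chosen after seeing the data, kept each share within its interval. Depth limits MAD2 most, found in 76 cells.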
